A study of Mus musculus with 11 samples.

Results

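Metallothioneins are small cysteine-rich proteins that bind zinc and copper, and the iron genes described with them store iron, carry it in the blood, bring it into cells or let it out. The group is 9 genes listed by symbol, with no measured value in the rule: the metallothioneins Mt1, Mt2 and Mt3, the ferritin heavy chain Fth1, the ferritin light chain Ftl1, transferrin (Trf), the transferrin receptor (Tfrc), ferroportin (Slc40a1) and the metal importer ZIP14 (Slc39a14). All 9 were found among the 37991 Ensembl genes of the count table, and all 9 passed the filter on low counts that left 17099 genes to test. Their RNA was measured by polyA RNA-seq in the retina of the right eye, 1 animal per library, in 11 mice killed at postnatal day 24. Mice of the rd10 strain (labelled B6.CXB1-Pde6brd10/Jrd10) carry a mutant allele of Pde6b, the rod phosphodiesterase gene, and lose their rod photoreceptors. Each genotype received either GSK2879552 (GSK here), an inhibitor of the histone demethylase LSD1, or saline. The groups were rd10 with GSK (n = 3), rd10 with saline (n = 3), wild-type (WT, C57Bl/6J) with GSK (n = 3) and WT with saline (n = 2). GSK was given daily by intraperitoneal injection at 4.2 mg/kg, and saline served as its control, from day 9 to day 24. Both strains are whole-animal models with no Cre or transgene named in the labels, and differences of strain background cannot be told apart from those of the Pde6b allele.

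Metallothionein genes are switched on by zinc through the transcription factor MTF1, and Mt1 and Mt2 also respond to glucocorticoids and to STAT3 signalling, whereas Mt3 is mainly a gene of the nervous system. Cells hold spare iron in ferritin cages built from heavy and light chains, take up transferrin-bound iron through the transferrin receptor and release iron through ferroportin. Iron regulatory proteins bind RNA hairpins called iron-responsive elements: when iron is scarce they block translation of the ferritin messages and protect the transferrin receptor message from decay. In the retina, Müller glia, the pigment epithelium and the vessel wall take part in the exchange of iron with blood, and photoreceptors are heavy users of it.

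The libraries held 19657030 to 28053367 counts and 20121 to 21137 genes with at least 1 count, so the 9 genes are measured from many reads except Trf and Slc40a1, which stayed below 11 CPM. Levels are CPM, counts scaled to a common library size by TMM, with the standard deviation (SD) between animals. Changes are given on a log2 scale beside a standard error (SE), and rose, fell or passed refers to a p, adjusted over all tested genes, under 0.05. Pde6b reached 991 to 1757 CPM in rd10 GSK libraries, 332 to 422 in rd10 saline, 2214 to 2282 in WT GSK and 2231 to 2301 in WT saline, so all rd10 libraries were below all WT libraries; these counts do not read the mutant base itself. The summed level of 10 rod genes, none of them at 0, was 28626, 45141 and 54455 CPM in the 3 rd10 GSK libraries, 9897 to 12077 in rd10 saline, 66032 to 68789 in WT GSK and 70069 to 71564 in WT saline. A panel of 13 lens genes summed to 7274 CPM in rd10 GSK replicate 2 and to 722 CPM in WT saline replicate 2, and to 17.1 CPM or less in the other 9, so results were also computed without these 2 libraries. Xist was under 1 CPM in 2 of 3 rd10 GSK, 1 of 3 rd10 saline, 1 of 3 WT GSK and 0 of 2 WT saline libraries, so sex was mixed unevenly over the groups and its part in the results was not tested.

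**Figure D1:**
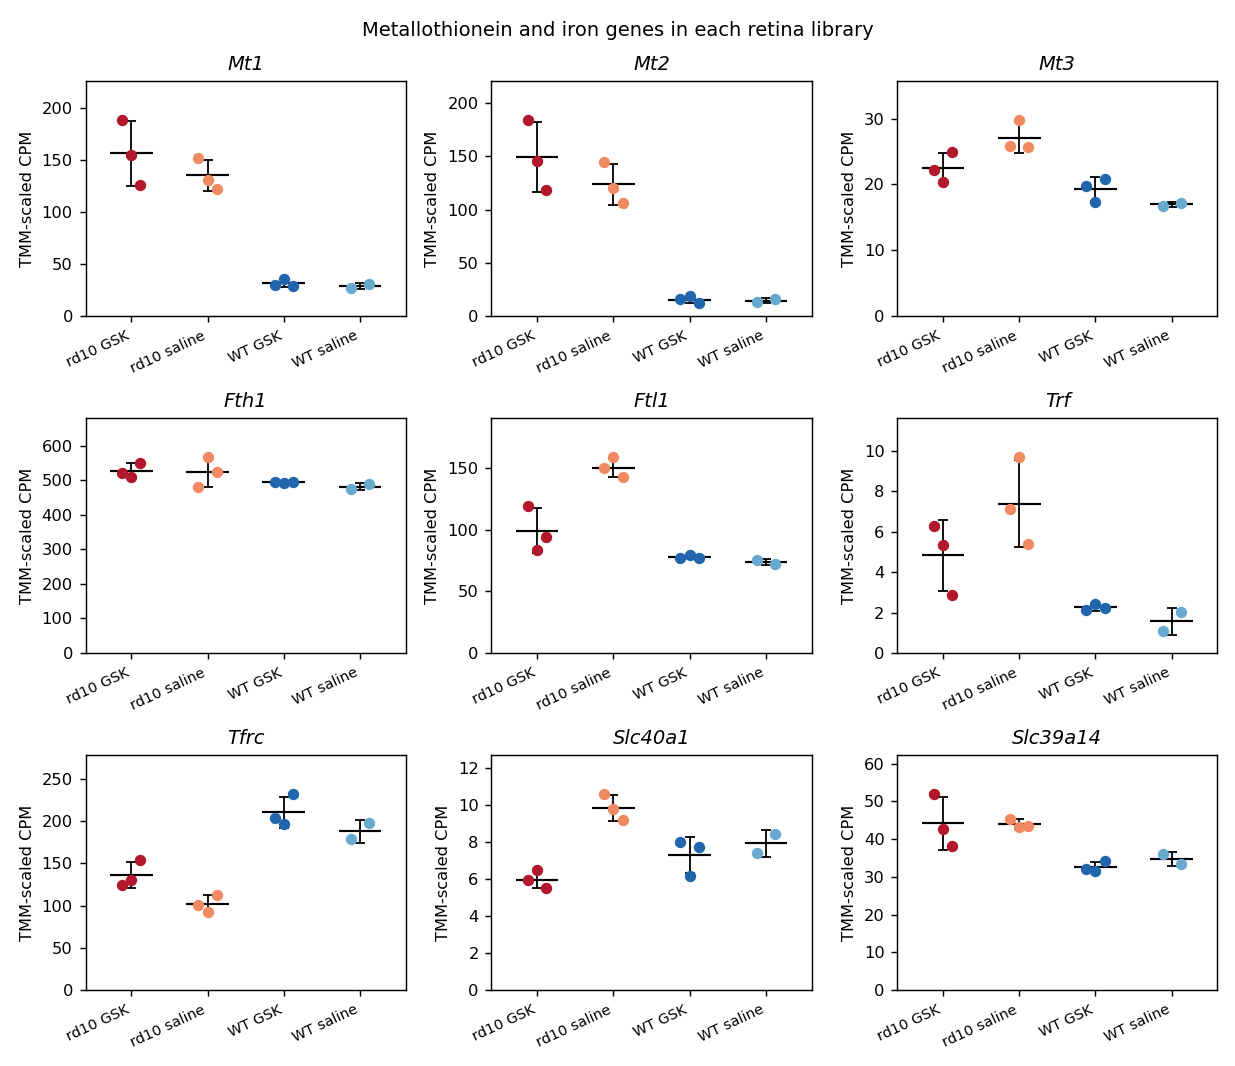
Level of each of the 9 genes in every library, as TMM-scaled CPM on a linear axis from 0, with 1 point per animal and a bar and whiskers for the mean and SD of each group. Mt1 and Mt2 are high in all 6 rd10 libraries, Ftl1 is highest in rd10 saline, and Tfrc is highest in the 5 WT libraries.

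Mt1 and Mt2 were higher in rd10 than in WT retina on either treatment, and they stayed above WT levels with GSK. Mt1 had 188, 155 and 126 CPM in rd10 GSK retinas, 152, 131 and 123 CPM in rd10 saline, 30.1, 35.0 and 28.7 CPM in WT GSK, and 26.4 and 30.4 CPM in WT saline. Mt2 had 184, 146 and 118 CPM in rd10 GSK, 144, 120 and 106 CPM in rd10 saline, 15.3, 18.2 and 12.1 CPM in WT GSK, and 12.5 and 15.9 CPM in WT saline. Every rd10 library was above every WT library for both genes, and the rd10 GSK and rd10 saline libraries overlapped. Group means of Mt1 were 157 ± 31.1 CPM in rd10 GSK (SD, n = 3), 135 ± 15.2 in rd10 saline, 31.3 ± 3.33 in WT GSK and 28.4 ± 2.88 in WT saline (n = 2). In rd10 saline over WT saline, Mt1 rose by 2.25 ± 0.18 log2 (SE, edgeR adjusted p = 1.33e-05) and Mt2 by 3.12 ± 0.26 (adjusted p = 3.08e-05). In these bulk samples fewer cells of a type and less RNA per cell cannot be told apart, in either direction.

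Mt3 moved less. It had 22.2, 20.4 and 24.9 CPM in rd10 GSK, 25.9, 29.8 and 25.6 CPM in rd10 saline, 19.8, 17.2 and 20.9 CPM in WT GSK, and 16.7 and 17.2 CPM in WT saline. The 3 rd10 saline libraries were the 3 highest of all 11. Mt3 rose by 0.68 ± 0.11 in rd10 saline over WT saline (edgeR adjusted p = 0.000601).

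With GSK in rd10, edgeR called none of the 3 metallothioneins, with Mt3 at an unadjusted p of 0.0174, while limma-voom called Mt3 lower (-0.27, adjusted p = 0.0489). The log2 fold change of rd10 GSK over rd10 saline was 0.21 ± 0.14 for Mt1 (95% interval -0.11 to 0.53, edgeR adjusted p = 0.288). For Mt2 it was 0.27 ± 0.19 (interval -0.17 to 0.71, adjusted p = 0.318), and for Mt3 -0.27 ± 0.10 (interval -0.48 to -0.06, adjusted p = 0.0523). Without rd10 GSK replicate 3 both Mt1 (0.34, adjusted p = 0.04998) and Mt3 (-0.35, adjusted p = 0.0201) passed, and without WT GSK replicate 2 so did Mt3 (adjusted p = 0.0459). All 3 rd10 GSK libraries were below all 3 rd10 saline libraries for Mt3. When scaled on inner retina genes, a choice that moved the median of all 17099 genes to 0.33 in this comparison, Mt1 was at 0.54 (adjusted p = 0.0250), Mt2 at 0.60 (adjusted p = 0.0470) and Mt3 turned to 0.05. With both genotypes on GSK, Mt1 was higher in rd10 by 2.32 ± 0.15 (adjusted p = 4.19e-05) and Mt2 by 3.29 ± 0.22 (adjusted p = 8.52e-05), while Mt3 was at 0.22 ± 0.10 (adjusted p = 0.114). Without the 2 lens-bearing libraries Mt1 was at 2.33 and Mt2 at 3.31 in that comparison.

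Mt2 and Mt1 counts within a library gave a ratio that no scaling alters. Mt2 over Mt1 was 0.977, 0.942 and 0.934 in rd10 GSK, 0.948, 0.919 and 0.867 in rd10 saline, 0.509, 0.520 and 0.422 in WT GSK, and 0.475 and 0.522 in WT saline. The 6 rd10 libraries all lay above the 5 WT libraries, so Mt2 differed between genotypes by more than Mt1. The ratio was not tested. Gm45774, on the opposite strand, overlaps exons of Mt2, and the strand setting of the counting is not known. Per kilobase of transcript, Mt1 and Mt2 stood at 285 and 292 CPM in rd10 GSK, 246 and 242 in rd10 saline, 57 and 29.8 in WT GSK, and 51.7 and 27.8 in WT saline.

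The 3 metallothionein genes lie side by side on chromosome 8, and their promoters are printed as a description. Mt3 lies at chr8:94152607-94154146, Mt2 at chr8:94172664-94173568 and Mt1 at chr8:94179082-94180327, all on the plus strand (GENCODE M21, GRCm38). The 250 bases before each start come from RefSeq (GRCm38.p6): chr8:94178839-94179088 for Mt1, chr8:94172368-94172617 for Mt2 and chr8:94152357-94152606 for Mt3. Capitals mark matches to the core of the metal response element bound by MTF1, searched as TGCACNC and TGCGCNC on both strands.
Mt1: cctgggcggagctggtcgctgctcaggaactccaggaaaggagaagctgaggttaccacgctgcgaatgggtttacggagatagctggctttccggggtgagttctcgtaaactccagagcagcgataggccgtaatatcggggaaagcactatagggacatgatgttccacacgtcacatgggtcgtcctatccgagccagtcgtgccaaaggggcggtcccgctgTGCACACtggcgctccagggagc
Mt2: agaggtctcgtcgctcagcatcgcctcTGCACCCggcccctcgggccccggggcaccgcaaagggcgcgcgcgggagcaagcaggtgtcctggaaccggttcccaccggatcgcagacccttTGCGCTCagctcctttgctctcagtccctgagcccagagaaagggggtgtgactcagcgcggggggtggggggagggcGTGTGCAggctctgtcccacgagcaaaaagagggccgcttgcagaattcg
Mt3: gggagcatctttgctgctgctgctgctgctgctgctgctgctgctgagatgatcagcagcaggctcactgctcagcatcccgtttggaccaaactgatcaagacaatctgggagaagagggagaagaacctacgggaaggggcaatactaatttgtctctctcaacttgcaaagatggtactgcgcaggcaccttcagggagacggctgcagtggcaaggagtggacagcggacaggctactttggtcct
In the 250 bases before the RefSeq start, Mt1 held 1 match, at bases -23 to -17. The Mt2 promoter held 3, at -223 to -217, -128 to -122 and, on the minus strand, -50 to -44. The Mt3 promoter held 0. Of 32851 promoters of this length, 21.4% held at least 1 match, 5.17% at least 2 and 1.26% at least 3, and a match is a description of letters only. The search covered only the 250 bases before each RefSeq start, so sites outside them, including any after that start, were missed. The RefSeq and GENCODE starts differ for Mt1 and Mt2. The Mt1 stretch ends at 94179088, past the GENCODE start at 94179082, and the Mt2 stretch ends at 94172617, before 94172664. The number of matches for each gene therefore depends on the start used. Whether the matches bear on the changes in RNA was not tested. Promoters were found in the table for 6 of the 9 members; Fth1 and Ftl1 had 0 matches and Tfrc had 2 that overlap each other.

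The light chain of ferritin changed, and the heavy chain did not pass the test in any comparison under TMM scaling. Ftl1 had 119, 83.6 and 94.2 CPM in rd10 GSK, 150 (149.8), 159 and 143 CPM in rd10 saline, 77.4, 79.0 and 77.0 CPM in WT GSK, and 75.4 and 71.8 CPM in WT saline. The rd10 saline libraries were the 3 highest, the rd10 GSK libraries lay between them and the WT libraries, and no 2 of these 3 sets overlapped. Ftl1 rose by 1.03 ± 0.12 in rd10 saline over WT saline (edgeR adjusted p = 7.3e-05) and fell by 0.60 ± 0.10 on the log2 scale in rd10 GSK over rd10 saline (adjusted p = 0.00133). With both genotypes on GSK it was still higher in rd10, by 0.35 ± 0.10 (adjusted p = 0.0301), a call lost without any 1 WT GSK library (adjusted p = 0.0874, 0.0758 and 0.0854) and without rd10 GSK replicate 1, where the difference was 0.19 (adjusted p = 0.0621), as well as with only the 2 groups fitted (0.0915). Scaled on inner retina genes, the change with GSK in rd10 was -0.28 and did not pass (adjusted p = 0.0936). These comparisons share libraries (rd10 saline in the first pair, rd10 GSK in the second), so they are not independent of each other.

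Per kilobase of transcript Fth1 had the highest level of the 9 members, with 567 CPM in rd10 GSK, 564 in rd10 saline, 533 in WT GSK and 517 in WT saline. Unscaled for length it had 522, 508 and 551 CPM in rd10 GSK, 479, 566 and 525 CPM in rd10 saline, 496, 493 and 496 CPM in WT GSK, and 473 and 488 CPM in WT saline. The rd10 saline libraries overlapped with the others. Its log2 fold change was 0.12 ± 0.07 in rd10 saline over WT saline (interval -0.03 to 0.28, edgeR adjusted p = 0.198) and 0.01 ± 0.06 in rd10 GSK over rd10 saline (interval -0.13 to 0.15, adjusted p = 0.928). When scaled on inner retina genes the second value was 0.33 (adjusted p = 0.00129), level with the median of all genes. The count ratio of Ftl1 to Fth1 was 0.228, 0.164 and 0.171 in rd10 GSK, 0.313, 0.280 and 0.272 in rd10 saline, 0.156, 0.160 and 0.155 in WT GSK, and 0.159 and 0.147 in WT saline. The rd10 saline libraries had the highest ratios, with no overlap. Both ferritin genes have processed pseudogenes whose reads the counting could split or share, so their absolute levels are uncertain; the annotated copy Ftl1-ps1 held at most 231 counts in a library.

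Both ferritin messages carry a hairpin with the loop of an iron-responsive element in their 5′ untranslated region, as do the message of ferroportin and, in its 3′ untranslated region, that of the transferrin receptor. These 17-base stretches are printed from GENCODE M21 transcripts in DNA letters, 5′ to 3′. Iron is known to act on these messages after transcription through hairpins of this kind. The search asked for a C, 5 bases, the loop CAGTGN, and 5 bases that pair with the first 5, G-T pairs allowed. Capitals mark the loop. Each label gives the region that holds the hairpin, and its base numbers count from the start of the transcript. For Tfrc they do not count from the start of the 3′ UTR.
Fth1-201, 5′ UTR bases 93 to 109: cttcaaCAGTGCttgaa
Ftl1-201, 5′ UTR bases 84 to 100: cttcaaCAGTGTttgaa
Slc40a1-201, 5′ UTR bases 96 to 112: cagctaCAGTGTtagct
Tfrc-201, 3′ UTR bases 3321 to 3337: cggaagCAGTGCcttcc
Tfrc-201, 3′ UTR bases 3700 to 3716: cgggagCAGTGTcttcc
Tfrc-201, 3′ UTR bases 3765 to 3781: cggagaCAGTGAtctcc
Tfrc-201, 3′ UTR bases 3812 to 3828: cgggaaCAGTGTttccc
A match was found in 4 of the 9 members and in 294 of 21901 protein-coding genes (1.34%). Hairpins with another loop or an unpaired stem base did not match, so the printed set can be incomplete. The RNA levels here are read counts and hold nothing on whether a hairpin was bound or a message translated.

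Tfrc, the receptor that takes in transferrin-bound iron, was lower in rd10 retina, and in rd10 it was higher with GSK. It had 125, 130 (130.1) and 154 CPM in rd10 GSK, 100.2, 92.9 and 113 CPM in rd10 saline, 203, 197 and 231 CPM in WT GSK, and 178 and 197 CPM in WT saline. All 6 rd10 libraries were below all 5 WT libraries, and within rd10 all GSK libraries were above all saline libraries. Tfrc fell by 0.88 ± 0.11 on the log2 scale in rd10 saline over WT saline (edgeR adjusted p = 8.89e-05) and rose by 0.42 ± 0.10 in rd10 GSK over rd10 saline (adjusted p = 0.00669). With both genotypes on GSK it remained lower in rd10 (-0.63 ± 0.10, adjusted p = 0.00154).

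Trf, which encodes transferrin, is lowly expressed here. It had 6.28, 5.35 and 2.86 CPM in rd10 GSK, 7.12, 9.69 and 5.40 CPM in rd10 saline, 2.1, 2.44 and 2.25 CPM in WT GSK, and 1.1 and 2.02 CPM in WT saline. All rd10 libraries were above all WT libraries. It rose by 2.23 ± 0.38 in rd10 saline over WT saline (edgeR adjusted p = 0.00102) and, with both on GSK, by 1.09 ± 0.32 (adjusted p = 0.0280), which did not pass once the 2 libraries with lens RNA were left out (adjusted p = 0.0863). That second call was also lost without any 1 WT GSK library (adjusted p = 0.0928, 0.0706 and 0.0795 for replicates 1 to 3) and without rd10 GSK replicate 1 (0.0985) or 2 (0.0800), and limma-voom did not make it (1.02, adjusted p = 0.0675). The change with GSK in rd10 was -0.61 ± 0.30 (interval -1.27 to 0.05, adjusted p = 0.141).

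Slc40a1, which encodes the iron exporter ferroportin, was lower with GSK in rd10. It had 5.93, 6.46 and 5.51 CPM in rd10 GSK, 10.6, 9.78 and 9.17 CPM in rd10 saline, 8.00, 6.16 and 7.70 CPM in WT GSK, and 7.42 and 8.43 CPM in WT saline. The rd10 saline libraries were the 3 highest of all 11. Slc40a1 fell by 0.72 ± 0.12 in rd10 GSK over rd10 saline (edgeR adjusted p = 0.00117), and its level in rd10 saline against WT saline was 0.31 ± 0.14 higher without passing the test (adjusted p = 0.0935). With both genotypes on GSK the difference was -0.29 ± 0.12 (adjusted p = 0.110).

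Slc39a14, the zinc, iron and manganese importer ZIP14, was higher in rd10 on either treatment. It had 51.8, 42.6 and 38.1 CPM in rd10 GSK, 45.5, 43.3 and 43.3 CPM in rd10 saline, 32.1, 31.6 and 34.2 CPM in WT GSK, and 36.1 and 33.5 CPM in WT saline. The rd10 libraries all lay above the WT ones. It rose by 0.34 ± 0.11 in rd10 saline over WT saline (edgeR adjusted p = 0.0244) and by 0.44 ± 0.09 in rd10 GSK over WT GSK (adjusted p = 0.00724). The first of these calls was lost without the lens-bearing libraries (0.27 ± 0.15, adjusted p = 0.220). It was also lost without WT saline replicate 1 (adjusted p = 0.0680) or 2 (0.173), or without rd10 saline replicate 1 (0.0768) or 3 (0.0515), and under inner retina scaling (0.151). The change with GSK in rd10 was 0.01 ± 0.09 (interval -0.20 to 0.21, adjusted p = 0.970), but 0.33 under inner retina scaling (adjusted p = 0.0413), again level with the median of all genes.

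**Figure D2:**
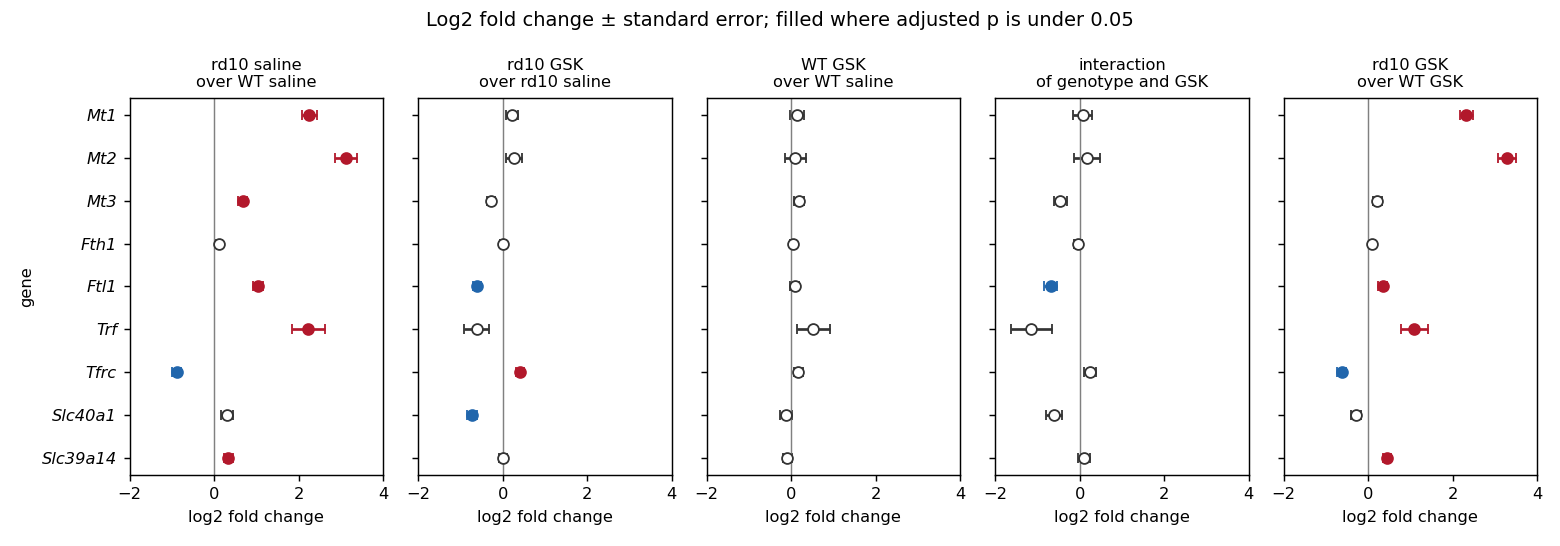
Log2 fold change of each of the 9 genes in the 5 comparisons, with SE as whiskers and filled symbols where the edgeR adjusted p was under 0.05. Mt1 and Mt2 lie between 2.25 and 3.29 in both comparisons of rd10 with WT, and no symbol is filled for GSK in WT.

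Over the 9 genes, 6 rose and 1 fell in rd10 saline over WT saline, a comparison in which 40.5% of all tested genes passed (21.5% higher, 19.0% lower). The median log2 fold change was 0.68 for the 9 genes and 0.02 for all tested genes, and 8 of 9 had libraries that did not overlap, as did 62.2% of all genes. In rd10 GSK over rd10 saline 1 rose and 2 fell, where 32.9% of all genes passed (17.6% higher, 15.2% lower), and 4 of 9 did not overlap (42.7% of all genes). The median was 0.01 in the members and in all genes, and the members' share called was near that of all genes. With both genotypes on GSK, 5 rose and 1 fell in rd10, against 26.2% of all genes (15.4% higher, 10.9% lower), 7 of 9 did not overlap (44.2% of all genes), and the median was 0.35 against 0.01.

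In WT retina none of the 9 passed the test with GSK, where 0.532% of all genes did (0.444% higher, 0.0877% lower), and 4 of 9 did not overlap (34.4% of all genes). The log2 fold changes ran between -0.12 for Slc40a1 and 0.53 for Trf, with edgeR adjusted p between 0.731 and 0.976. At an unadjusted p under 0.05 the count was also 0, and DESeq2 and limma-voom likewise called 0. For Mt1 the interval was -0.24 to 0.52 and for Trf -0.33 to 1.39. The difference between the GSK effect in rd10 and in WT passed the test for 1 member, Ftl1 (-0.68 ± 0.16, adjusted p = 0.0170), where 12.5% of all genes passed (7.49% higher, 4.98% lower). Without the lens-bearing libraries the Ftl1 interaction was -0.53 ± 0.16 (adjusted p = 0.109), and without WT saline replicate 1 or 2 it was -0.72 (0.0646) or -0.65 (0.0868). It was also lost under inner retina scaling (-0.45 ± 0.19, adjusted p = 0.123). Slc40a1 (-0.60 ± 0.19, adjusted p = 0.0575) and Mt3 (-0.46 ± 0.15, adjusted p = 0.0662) did not pass. Both passed without WT GSK replicate 2 (0.0315 and 0.0480), and Mt3 without rd10 GSK replicate 3 (0.0279). Tfrc, higher with GSK in rd10, did not pass for the interaction either (0.25 ± 0.14, edgeR adjusted p = 0.287). Its change with GSK in WT was 0.17 ± 0.11 (adjusted p = 0.777). The Tfrc interaction passed with a replicate block (0.0357) and under inner retina scaling (0.0382).

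Across the 11 libraries the genes whose log2 CPM was most like each member were found by Pearson's r among genes with a mean of at least 5 CPM. The gene most like Mt1 was Mt2 (r = 0.999), and after it the SOCS-box gene Spsb1 (0.990) and the transcription factor Stat3 (0.990). Ftl1 was most like the sulfhydryl oxidase Qsox1 (0.989), Tril (0.987) and Cpne2 (0.986). For Tfrc the closest were Fnip2 (0.991), Ythdc1 (0.988) and Zmym5 (0.986), and for Slc40a1 Klhl5 (0.977), Usp46 (0.963) and Acyp2 (0.960). The closest to Slc39a14 were Trp53 (0.985), Nfkbie (0.984) and Vasp (0.983), and those to Trf included Rnh1 (0.980) and Cfi (0.978). Mt3 was closest to Adi1 (0.974) and Fth1, whose range was small, to Arrdc1 (0.909). These values describe 11 libraries that fall into 4 groups.

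Cell type markers moved with these results. The 8 reactive glia genes summed to 568 to 1394 CPM in rd10 GSK, 1045 to 1275 in rd10 saline, 128 to 133 in WT GSK and 143 to 149 in WT saline. The 12 microglia genes summed to 162 to 334 CPM in rd10 GSK, 538 to 643 in rd10 saline, 97.8 to 102 in WT GSK and 94.6 to 95.9 in WT saline, with every one of the 12 called higher in rd10 saline over WT saline and 11 lower in rd10 GSK over rd10 saline. The 10 Müller glia genes summed to 6463 to 7261 CPM in rd10 GSK, 10374 to 12053 in rd10 saline, 7403 to 7554 in WT GSK and 6654 to 6815 in WT saline. The 5 astrocyte genes summed to 216 to 444 CPM in rd10 GSK, 494 to 625 in rd10 saline, 87.0 to 88.8 in WT GSK and 97.5 to 102 in WT saline, and the 8 endothelial genes to 527 to 591 CPM in rd10 GSK, 768 to 882 in rd10 saline, 453 to 515 in WT GSK and 478 to 499 in WT saline. Of the 8 endothelial genes, 2 were called higher and 2 lower in rd10 saline over WT saline, with a median log2 fold change of -0.13. The endothelial sum therefore did not reflect a shared direction among its genes. Gfap is in both the astrocyte and the reactive glia list. Like the microglia, Müller glia and astrocyte sums, Ftl1 and Slc40a1 were highest in rd10 saline. So were the endothelial and pericyte sums, with 1 of the 5 pericyte genes called higher in rd10 saline over WT saline. The 23 inner retina genes also summed highest there (5551 to 5582 CPM), against 4169 to 4539 in rd10 GSK and 4953 to 5009 in WT GSK. In WT saline they summed to 5183 to 5242 CPM. Sums of 7 oligodendrocyte genes and of 6 genes of other macrophages and monocytes overlapped between rd10 saline and rd10 GSK. The 6 erythroid genes summed to 40.6 to 77.0 CPM in rd10 GSK, 31.8 to 37.4 in rd10 saline, 57.6 to 93.1 in WT GSK and 86.7 to 108 in WT saline, and 6 of 6 were called lower in rd10 saline over WT saline. Tfrc, like the rod and erythroid sums, was lowest in rd10 saline. The 12 pigment epithelium genes summed to 119 to 164 CPM in rd10 GSK, 50.6 to 122 in rd10 saline, 226 to 301 in WT GSK and 90.6 to 208 in WT saline, with 0 called by edgeR in any comparison. The part of these cell types in the results was not tested.

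**Figure D3:**
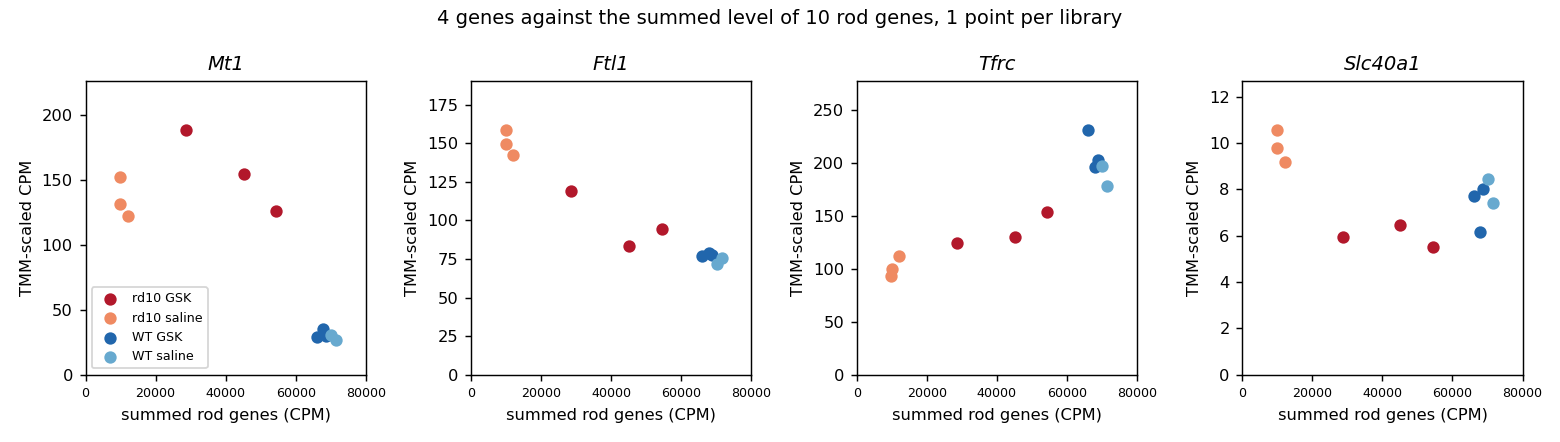
Level of 4 genes, as TMM-scaled CPM (linear axis), against the summed CPM of 10 rod genes, with 1 point per library coloured by group. The rd10 GSK libraries lie between 28626 and 54455 CPM on the rod axis, where Mt1 overlaps with rd10 saline and Slc40a1 is below rd10 saline.

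Of 10 tested genes of iron uptake and reduction other than the members, 5 rose, 1 fell and 4 did not pass in rd10 saline over WT saline, where 21.5% of all tested genes rose and 19.0% fell. The ferric reductase Steap4 averaged 12.6 ± 14.3 CPM in rd10 GSK, 33.4 ± 8.35 in rd10 saline, 0.513 ± 0.0948 in WT GSK and 0.672 ± 0.268 in WT saline. It rose by 5.64 ± 1.17 (edgeR adjusted p = 0.00651). Slc11a1, a metal transporter of phagocytes, rose by 3.96 ± 0.79 and Steap1 by 1.69 ± 0.34. The Steap4 call was lost under 2 of 19 alternatives, without WT saline replicate 2 and without both lens-bearing libraries (adjusted p up to 0.0574), and that of Slc11a1 under 1, without the lens-bearing libraries (0.0615). With GSK in rd10, 1 of the 10 rose and 0 fell: Slc11a2, the divalent metal transporter DMT1, by 0.25 ± 0.05 (adjusted p = 0.00305). The count of calls was 1 to 4 over 19 alternatives. The change in Steap4 there was -1.40 ± 0.71 and did not pass (edgeR adjusted p = 0.172). Over all tested genes 17.6% rose and 15.2% fell with GSK in rd10. In rd10 GSK over WT GSK 5 rose and 1 fell, where 15.4% of all tested genes rose and 10.9% fell. These 6 calls were 1 to 6 over 19 alternatives, and 3 by limma-voom. Slc11a1 lost its call there under 9 of 19 (adjusted p up to 0.137) and Steap4 under 4 (up to 0.122), both among others without any 1 WT GSK library.

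Of 9 tested genes that export, oxidise or scavenge iron, 5 rose, 0 fell and 4 did not pass in rd10 saline over WT saline, beside the same shares of all genes. Lcn2, lipocalin 2, which binds siderophores, rose by 6.03 ± 1.17 (edgeR adjusted p = 0.00533), Hmox1, which breaks down haem, by 2.65 ± 0.46 and the ferroxidase ceruloplasmin (Cp) by 2.44 ± 0.42. Lcn2 averaged 62.2 ± 71.6 CPM in rd10 GSK, 271 ± 69.2 in rd10 saline, 6.53 ± 0.460 in WT GSK and 4.13 ± 0.429 in WT saline. With GSK in rd10 the change in Lcn2 was -2.12 ± 0.76 and did not pass (edgeR adjusted p = 0.0715). There 1 rose (Hpx, hemopexin, by 1.68 ± 0.39 at levels that averaged under 1 CPM) and 2 fell: Lrp1, a hemopexin receptor, by 0.89 ± 0.12 and the ferroxidase hephaestin (Heph) by 0.74 ± 0.08. These 3 calls were 3 to 6 over 19 alternatives. Over all tested genes 17.6% rose and 15.2% fell in that comparison. Heph averaged 19.2 ± 0.893 CPM in rd10 GSK, 32.1 ± 1.19 in rd10 saline, 18.1 ± 2.02 in WT GSK and 15.9 ± 0.00441 in WT saline. The interaction passed for these 3 of the 9, beside 12.5% of all tested genes: Hpx (1.92 ± 0.57), Lrp1 (-0.96 ± 0.18) and Heph (-0.93 ± 0.13). Heph kept that call under all 18 alternatives, Lrp1 lost it without the lens-bearing libraries (adjusted p = 0.0668), and Hpx lost it under 15 of 18 (adjusted p up to 0.556), including most of those that leave out 1 library. With both genotypes on GSK, 5 rose in rd10, among them Cd163 and Hp, whose means were 0.606 and 0.943 CPM in rd10 GSK and 0.0153 and 0.0682 CPM in WT GSK, too few counts for a firm fold. The 5 calls were 3 to 6 over 19 alternatives, and that of Lcn2 (3.26 ± 0.87, edgeR adjusted p = 0.0317) was lost under 10 of them. Over all tested genes 15.4% rose and 10.9% fell in this comparison.

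Of 7 tested genes of iron sensing and the hepcidin axis, 2 rose and 3 fell in rd10 saline over WT saline. In that comparison 21.5% of all tested genes rose and 19.0% fell. Fbxl5, the ubiquitin ligase that removes iron regulatory protein 2 when iron is plentiful, fell by 0.77 ± 0.07 (edgeR adjusted p = 1.1e-05), and Neo1 and Hfe each rose by 0.69. With GSK in rd10, 2 rose and 1 fell: Fbxl5 rose by 0.85 ± 0.06, Aco1, which encodes iron regulatory protein 1, rose by 0.19 ± 0.06, and Neo1 fell by 0.70 ± 0.06. Over all tested genes 17.6% rose and 15.2% fell with GSK in rd10. The Aco1 call was lost under 4 of 19 alternatives, among them those without rd10 saline replicate 3, rd10 GSK replicate 1 or rd10 GSK replicate 3 (adjusted p up to 0.102). Fbxl5 averaged 293 ± 24.3 CPM in rd10 GSK, 162 ± 5.76 in rd10 saline, 290.1 ± 9.00 in WT GSK and 277 ± 3.23 in WT saline. In rd10 GSK over WT GSK edgeR called 0 of the 7, against 26.2% of all tested genes. Of the 7, 1 was at an unadjusted edgeR p under 0.05, and DESeq2 called 1 and limma-voom 0.

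Of 9 tested genes of iron chaperoning, ferritin turnover and mitochondrial iron, 2 rose and 2 fell in rd10 saline over WT saline (2 to 4 calls over 19 alternatives), and 4 rose and 0 fell with GSK in rd10 (3 to 6). Over all tested genes 21.5% rose and 19.0% fell in the first comparison, and 17.6% rose and 15.2% fell in the second. Slc25a37, the mitochondrial iron importer mitoferrin 1, averaged 77.0 ± 27.5 CPM in rd10 GSK, 43.0 ± 0.262 in rd10 saline, 21.1 ± 1.22 in WT GSK and 25.0 ± 0.980 in WT saline. It rose by 0.78 ± 0.25 in rd10 saline over WT saline (edgeR adjusted p = 0.0365), by 0.84 ± 0.22 with GSK in rd10 (adjusted p = 0.0172) and by 1.87 ± 0.23 in rd10 GSK over WT GSK (adjusted p = 0.00105). The first of these calls was lost under 13 of 19 alternatives (adjusted p up to 0.169), including the removal of any 1 library other than rd10 GSK replicate 1 or 3, and the second under 4 (up to 0.0687), including that of rd10 saline replicate 1 or 3; the third was kept in all 19. The iron chaperone Pcbp2 fell by 0.88 ± 0.06 in rd10 saline over WT saline and rose by 0.64 ± 0.06 with GSK in rd10.

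**Figure D4:**
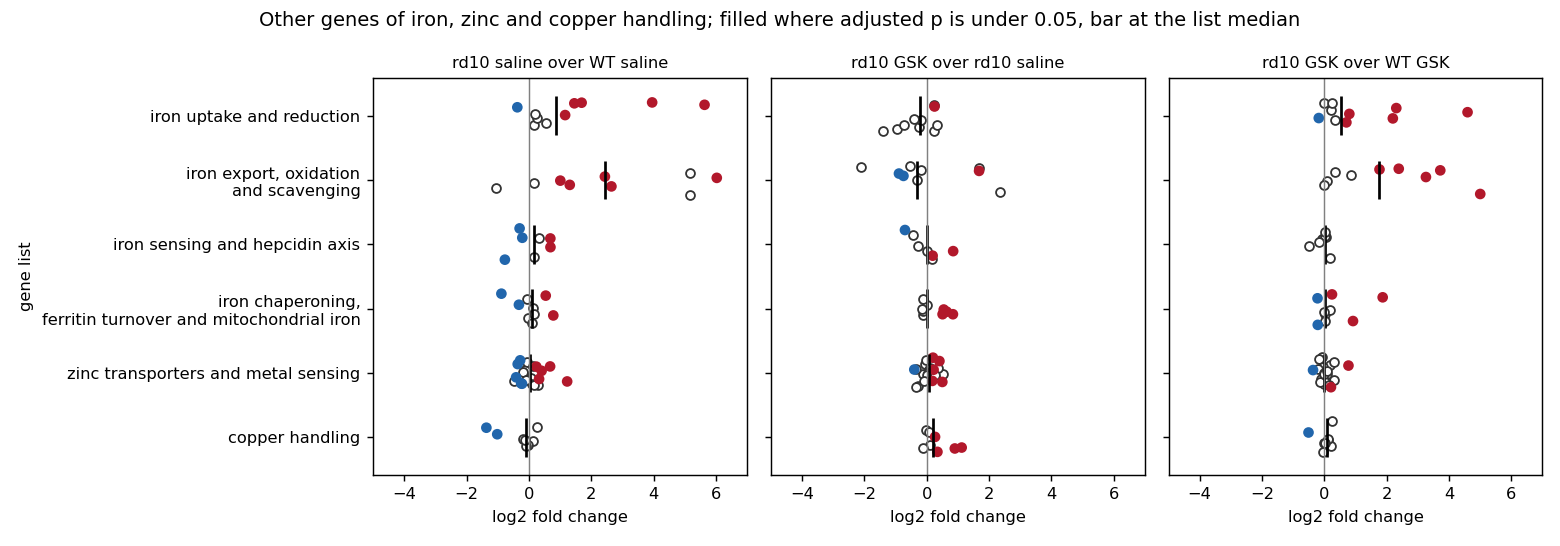
Log2 fold changes of 64 tested genes in 6 lists of iron, zinc and copper handling in 3 comparisons, filled where the edgeR adjusted p was under 0.05, with a bar at each list's median. In rd10 saline over WT saline the lists for iron uptake and iron export had medians of 0.86 and 2.44, against 0.02 for all tested genes. The export median includes Hp and Cd163, uncalled there, with means of 0.182 and 0.185 CPM in rd10 saline and 0 in WT saline. Hpx, also uncalled, lay at -1.07.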

How the data were processed

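Raw read counts per Ensembl gene, deposited by the authors for 11 libraries, were used as they stand. The authors used bcl2fastq, then HISAT2 2.1.0 for alignment and HTSeq for counting, per the submitters' processing notes, which list NCBIM37 and mm9. Strand setting, HTSeq version and annotation: not given in the sources used here. Thus overlapping genes and near-identical copies are uncertain. Among the members, exons of other genes overlap those of Mt2 (Gm45774, opposite strand), Ftl1 (Gm10252, opposite strand, and Gm22133, same strand) and Trf (Gm20425, same strand). Gene names came from GENCODE M21: 32919 identifiers matched and 5072, with 0.627% of counts, did not.

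Genes with few reads were removed (filterByExpr, at least 10 counts and 15 in total), and the rest scaled by TMM and tested with the quasi-likelihood F-test of edgeR 4.0.16 (R 4.3.3) with 1 coefficient per group over all 11 libraries. P-values were adjusted over 17099 genes by Benjamini-Hochberg, with 0.05 as the threshold. DESeq2 1.42.0, limma-voom (limma 3.58.1), other scalings and leaving out libraries were alternatives. The members and lists were chosen with earlier results of these data known. Of each list, up to 3 called genes with the largest change per comparison are named; some are not reported here.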

Additional observations from a re-analysis of the deposited data

Results flagged for a closer look

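The change in Ftl1, the ferritin light chain, with GSK differed between genotypes: the effect in rd10 minus the effect in WT was -0.68 on the log2 scale (SE 0.16, edgeR adjusted p = 0.0170), from a direct test of that difference. The call was lost under 4 of 18 alternatives: without the lens-bearing libraries (adjusted p = 0.109), without WT saline replicate 1 (0.0646) or 2 (0.0868), and under inner retina scaling (-0.45, adjusted p = 0.123). Ftl1 averaged 99.0 ± 18.3 CPM in rd10 GSK and 150.4 ± 8.03 CPM in rd10 saline (SD, n = 3 each), and 77.8 ± 1.07 CPM in WT GSK (n = 3) and 73.6 ± 2.55 CPM in WT saline (n = 2).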

How the results depend on the processing

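Mt1, Mt2, Mt3, Ftl1, Trf and Tfrc passed in rd10 saline over WT saline under all 19 alternatives, as did Tfrc and Slc40a1 in rd10 GSK over rd10 saline, and Mt1, Mt2, Tfrc and Slc39a14 in rd10 GSK over WT GSK. In rd10 GSK over rd10 saline, 6 rather than 3 members passed when scaled on inner retina genes, where Ftl1 lost its call (-0.28, adjusted p = 0.0936), and 3 to 5 did when 1 library was left out (5 without rd10 GSK replicate 3). For the interaction, 0 to 3 members passed when 1 library was left out, against 1 with all: 0 without either WT saline library, 2 without rd10 GSK replicate 3 and 3 without WT GSK replicate 2; the count was 0 without the lens-bearing libraries and 2 with a replicate block, and Ftl1 did not pass under inner retina scaling (-0.45, adjusted p = 0.123), where Tfrc did (0.47, adjusted p = 0.0382). The labels do not say whether the replicate numbers pair animals. Over 15 same-numbered pairs, r ran between -0.19 and 0.39, with 6 over 0.1. The highest was between the lens-bearing libraries, WT saline replicate 2 and rd10 GSK replicate 2. Pairs with different numbers were not computed, so these values cannot decide whether the numbers pair animals. Values that turned round, none of them called, were Slc39a14 in rd10 GSK over rd10 saline by limma-voom (-0.0022) and under the replicate block (-7.74e-06), Mt3 there (0.049) and Slc39a14 in WT GSK over WT saline (0.0023) under inner retina scaling, and for the interaction Fth1 under that scaling (0.19) and Mt1 with the block (-0.028) and without the lens-bearing libraries (-0.016). Leaving out 1 library moved rd10 GSK over rd10 saline between -0.039 and 0.081 for Fth1 and between -0.12 and 0.10 for Slc39a14, WT GSK over WT saline between -0.059 and 0.28 for Mt2, and the interaction between -0.079 and 0.20 for Mt1, -0.0098 and 0.33 for Mt2, -0.084 and 0.036 for Fth1, and -0.027 and 0.20 for Slc39a14. The cause was not tested. Over all genes, calls in rd10 saline over WT saline numbered 6919, against 4081 without the lens-bearing libraries, and 5621 in rd10 GSK over rd10 saline, against 3588 with only those groups fitted and 8946 under inner retina scaling. WT GSK over WT saline gave 91 calls (12 to 916 over the alternatives), the interaction 2131 (524 to 3761) and rd10 GSK over WT GSK 4484 (2213 to 5694). Inner retina scaling raised the share of calls that were higher to 95.3% from 53.6% in rd10 GSK over rd10 saline, to 88.6% from 58.5% in rd10 GSK over WT GSK, to 93.9% from 60.1% in the interaction and to 96.0% from 83.5% in WT GSK over WT saline, and lowered it to 41.4% from 53.0% in rd10 saline over WT saline. Of 58 changes in the pathway lists that the naming rule picked, 33 kept their call under every alternative that could be run and 0 changed direction.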

Other observations

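Of 21 tested zinc transporters and metal sensors, 5 rose and 5 fell in rd10 saline over WT saline, where 40.5% of all tested genes passed. The zinc importer gene Slc39a1 rose by 1.23 ± 0.20 log2 (SE, edgeR adjusted p = 0.00109) and Slc39a11 by 0.68 ± 0.16, while Mtf1, the gene of the metal-responsive transcription factor, fell by 0.41 ± 0.07 (adjusted p = 0.000994). Mtf1 averaged 53.5 ± 2.02 CPM in rd10 GSK, 40.2 ± 3.67 in rd10 saline, 53.9 ± 1.87 in WT GSK and 53.5 ± 0.750 in WT saline (SD). With GSK in rd10, 5 rose and 1 fell: among them Mtf1 rose by 0.41 ± 0.07, Slc30a3 rose by 0.50 ± 0.13 and Slc30a10 fell by 0.40 ± 0.10. These 6 calls were 2 to 13 over 19 alternatives. Over all tested genes 17.6% rose and 15.2% fell with GSK in rd10. In rd10 GSK over WT GSK 2 rose and 1 fell, where 15.4% of all tested genes rose and 10.9% fell. These 3 calls were 0 to 5 over 19 alternatives: Slc30a1 lost its call under 14, Slc30a10 under 5 and Slc39a1 under 2.

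Of 8 copper genes, 0 rose and 2 fell in rd10 saline over WT saline, where 21.5% of all tested genes rose and 19.0% fell. The copper exporter gene Atp7b fell by 1.37 ± 0.17 (edgeR adjusted p = 0.000149) and the transporter gene Slc31a2 by 1.02 ± 0.13. With GSK in rd10, 4 rose and 0 fell, among them Atp7b by 1.12 ± 0.16, Slc31a2 by 0.90 ± 0.12 and Slc31a1 by 0.35 ± 0.07. Over all tested genes 17.6% rose and 15.2% fell in that comparison. Atp7b averaged 20.5 ± 5.57 CPM in rd10 GSK, 9.39 ± 0.615 in rd10 saline, 29.3 ± 1.51 in WT GSK and 24.2 ± 1.93 in WT saline. With GSK in WT, edgeR, DESeq2 and limma-voom called 0 of all 64 listed genes, and 6 were at an unadjusted p under 0.05. Of all tested genes, edgeR called 0.532% there. Among the zinc genes, the Slc39a11 call was lost without WT saline replicate 2 or the lens-bearing libraries (adjusted p up to 0.0976), the Slc30a10 call without rd10 saline replicate 3 or under inner retina scaling (up to 0.565), and the Slc30a3 call with only rd10 fitted or without the lens-bearing libraries (up to 0.0661).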
